A study of Homo sapiens with 32 samples.

Results

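Prostaglandins are lipid signals that cells make from arachidonic acid. A cyclooxygenase turns the acid into prostaglandin H2, terminal synthases turn that into prostaglandin E2 (PGE2), D2 or prostacyclin, and a dehydrogenase breaks PGE2 down. In the ovary the surge of luteinizing hormone induces cyclooxygenase in granulosa cells, and PGE2 acting on its receptors takes part in cumulus expansion and follicle rupture. The 10 genes described here were chosen by symbol, out of 47137 gene entries, from this pathway. They are the cyclooxygenases PTGS1 and PTGS2, the PGE2 synthases PTGES, PTGES2 and PTGES3, the PGD2 synthase PTGDS, the prostacyclin synthase PTGIS, the PGE2 receptors PTGER2 (EP2) and PTGER4 (EP4), and HPGD, the dehydrogenase that inactivates PGE2. Of the 10, 9 had values, and 8 had enough counts for a test across genes. PTGS2, the inducible cyclooxygenase, was listed without a value in every library, as were 1497 of 20080 coding genes, and is not analysed here.

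The cells were HGrC1, an immortalized human granulosa cell line, so all libraries share 1 genetic background. The study asked what long exposure to low levels of perfluorooctane sulfonate (PFOS), a persistent fluorinated surfactant, does to such cells. Cultures from 4 thawed vials were each split into a vehicle control (0.05% DMSO) and cultures with PFOS at 0.01 µM, 0.1 µM and 1 µM, and RNA was taken at 6 and at 12 weeks, which gave 8 groups of 4 libraries. All 32 cultures shared a medium with 10% fetal bovine serum and a steroid, which is 100 nM estradiol in the sample labels and 100 nM testosterone in the methods of the study. Total counts lay between 17907057 and 18553350 per library.

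The label of a granulosa line was checked against 12 marker genes. GATA4 (60.9 to 87.9 TPM, a share of transcripts scaled by length), WT1 (32.4 to 44.8 TPM), FST (12.0 to 23.4 TPM) and AMH (10.2 to 17.6 TPM) were present in every library. FOXL2 was low, with 10 to 37 counts per library (0.32 to 1.19 TPM), as was INHA with 8 to 31. HSD17B1 had 43 to 86 counts and INHBA 123 to 412. CYP19A1, the aromatase that makes estradiol, had 0 or 1 counts per library, AMHR2 had 0 to 3 and NR5A1 had 0 to 14, and FSHR had no value. KRT7, a keratin of surface epithelium, was at 678 to 1547 TPM. Among the other markers of stroma or surface epithelium, MSLN was at 76.4 to 133 TPM, LUM at 24.6 to 40.9 and UPK3B at 8.66 to 24.9. DCN had 3 to 21 counts and PDGFRA 1 to 40. Counts over 6 liver markers summed to 0 or 1 in the control and 0.01 µM libraries at 6 weeks and to 72 to 174 in all other libraries except Control replicate 3 at 12 weeks, where the sum was 919.

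Levels between genes were compared as TPM, which is scaled by transcript length. PTGES3 (chr12:56663349-56688284, minus strand, GRCh38.p14), a co-chaperone that also has PGE2 synthase activity, had the highest level of the 9 genes in every group, with group means of 283 to 307 TPM. PTGIS (chr20:49503874-49568137, minus strand) came next at 123 to 208 TPM, followed by PTGES2 (chr9:128120693-128128440, minus strand) at 59.8 to 67.7 TPM. None of these neighbours overlapped in any group. In contrast, the synthase PTGES (chr9:129738349-129753042, minus strand), which works with the inducible cyclooxygenase, was at 2.86 to 7.41 TPM, and PTGDS (chr9:136977504-136981742, plus strand) at 5.53 to 26.8 TPM. The cyclooxygenase PTGS1 (chr9:122370533-122395703, plus strand) was at 0.892 to 3.20 TPM, below the 5 synthases in every group mean. Both receptors were low, PTGER2 (chr14:52314312-52328598, plus strand) at 1.21 to 1.84 TPM and PTGER4 (chr5:40679915-40746800, plus strand) at 0.660 to 1.82 TPM. HPGD (chr4:174490175-174522893, minus strand) had 0 to 7 counts per library and never exceeded 0.250 TPM.

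The order in the middle of the scale differed between the times. At 6 weeks the control ranked PTGES above PTGDS, with overlapping libraries, whereas all other groups ranked PTGDS above PTGES. These libraries overlapped at 0.01 µM and 6 weeks as well. The order at 6 weeks then ran PTGS1, PTGER2, PTGER4, HPGD in all 4 groups, without overlap between neighbours. At 12 weeks PTGS1 ranked eighth in all 4 groups, under both receptors, where it overlapped with the receptor next above it in the control and at 0.01 µM, and PTGER2 and PTGER4 overlapped in every group. Between libraries of a group the coefficient of variation of scaled CPM (counts scaled per library, not by length) was lowest for PTGES3. Its median over groups was 2.87%, against 23.1% for PTGDS and 23.3% for PTGER4. Reads of PTGES3 may be shared with 5 pseudogenes and those of PTGER4 with 3, and PTGER4 overlaps TTC33 on the genome, so both levels carry that uncertainty.

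**Figure D1:**
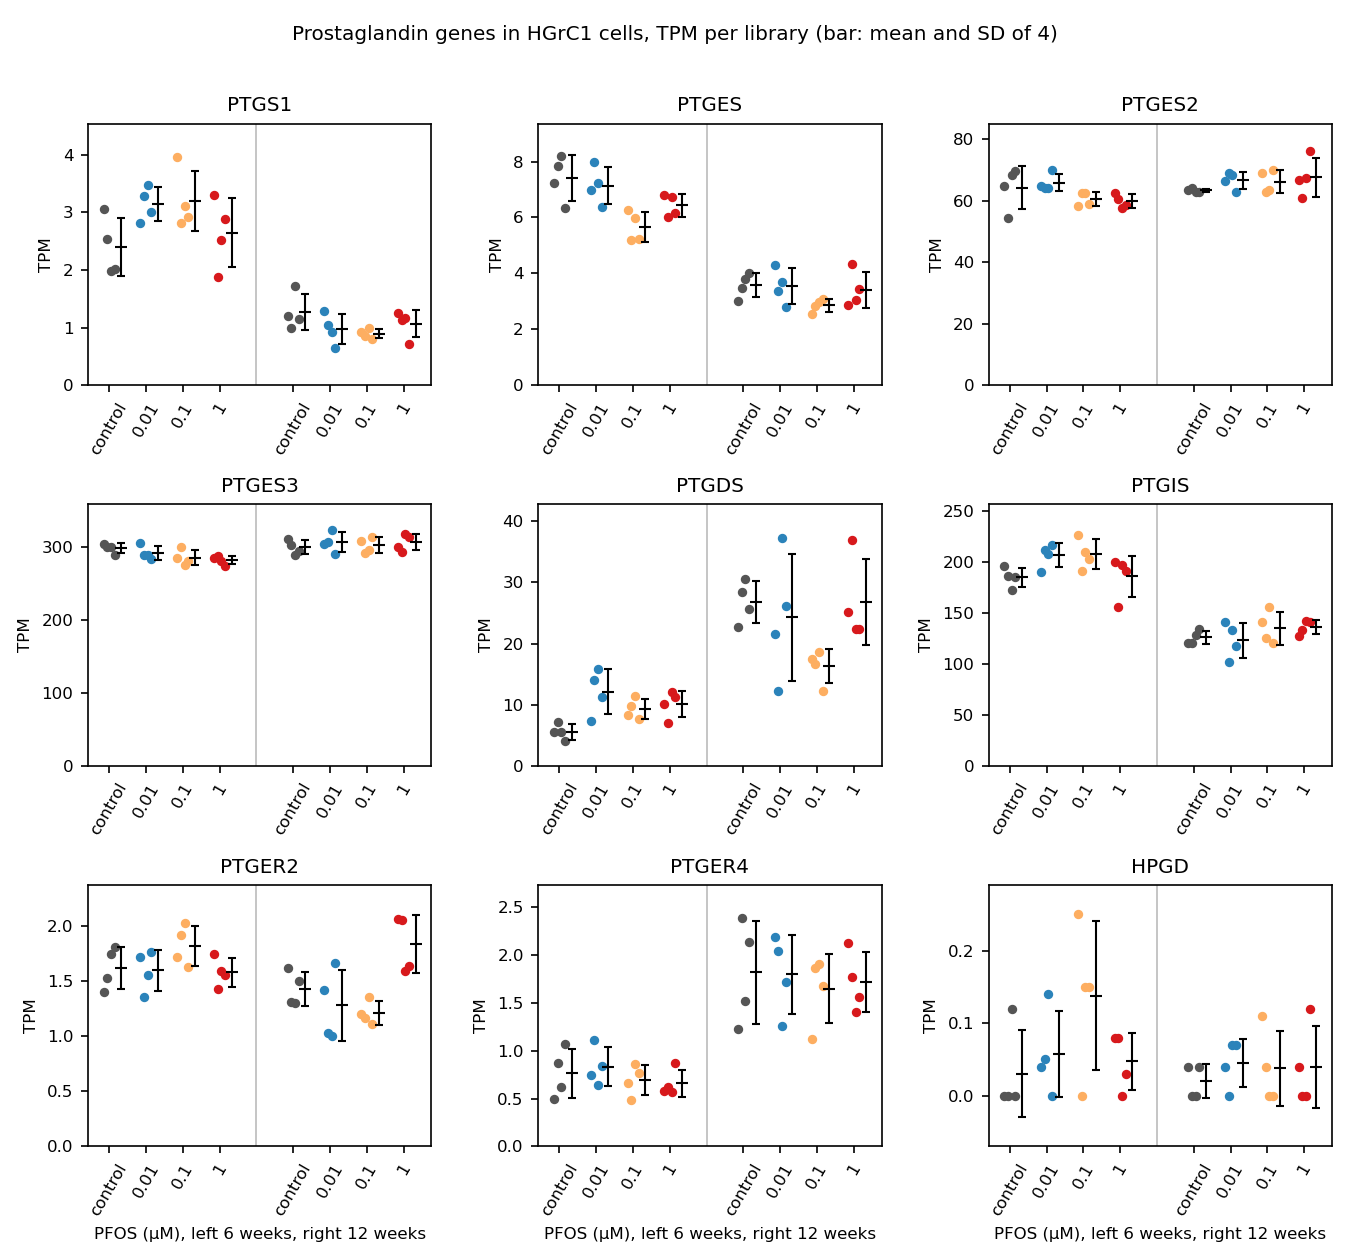
TPM of the 9 measured prostaglandin genes in each of 32 libraries (points), with the mean and SD of each group of 4 (bars), by PFOS concentration at 6 weeks (left of the line) and 12 weeks (right). PTGS1, PTGES and PTGIS sit lower and PTGER4 higher at 12 weeks in every exposure, and PTGDS rises from a median of 9.05 to 22.6 TPM.

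The promoters of PTGS1, PTGES, PTGDS and PTGER4 are shown because these genes moved together with time in culture, in opposite directions. They run from 250 bases before to 50 bases after the annotated start, as RefSeq gives them on GRCh38.p14. RefSeq's table matched 9 of the 10 genes, PTGIS being the other, and the start of PTGS1 used is the one at which the deposited table begins the gene. Capitals mark any of 10 motifs searched on both strands.
PTGS1, chr9:122370283-122370582, plus strand: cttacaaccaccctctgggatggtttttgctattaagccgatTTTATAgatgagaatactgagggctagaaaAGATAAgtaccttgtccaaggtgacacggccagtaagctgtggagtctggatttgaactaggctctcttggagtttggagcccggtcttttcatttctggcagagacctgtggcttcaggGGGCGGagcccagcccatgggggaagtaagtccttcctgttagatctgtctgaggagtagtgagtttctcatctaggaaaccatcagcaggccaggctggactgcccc
PTGES, chr9:129752993-129753292, minus strand: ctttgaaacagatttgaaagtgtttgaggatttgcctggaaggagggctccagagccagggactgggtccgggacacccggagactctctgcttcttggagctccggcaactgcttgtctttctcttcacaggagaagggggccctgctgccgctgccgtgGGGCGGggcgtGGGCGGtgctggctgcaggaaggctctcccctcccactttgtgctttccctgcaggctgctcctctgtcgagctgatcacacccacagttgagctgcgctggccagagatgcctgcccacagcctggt
PTGDS, chr9:136977254-136977553, plus strand: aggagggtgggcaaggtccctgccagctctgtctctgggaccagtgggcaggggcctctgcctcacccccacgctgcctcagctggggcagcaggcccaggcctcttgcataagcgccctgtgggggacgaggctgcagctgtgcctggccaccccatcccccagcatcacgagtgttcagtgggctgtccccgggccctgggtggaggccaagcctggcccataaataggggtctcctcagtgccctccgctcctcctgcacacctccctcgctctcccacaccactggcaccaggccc
PTGER4, chr5:40679665-40679964, plus strand: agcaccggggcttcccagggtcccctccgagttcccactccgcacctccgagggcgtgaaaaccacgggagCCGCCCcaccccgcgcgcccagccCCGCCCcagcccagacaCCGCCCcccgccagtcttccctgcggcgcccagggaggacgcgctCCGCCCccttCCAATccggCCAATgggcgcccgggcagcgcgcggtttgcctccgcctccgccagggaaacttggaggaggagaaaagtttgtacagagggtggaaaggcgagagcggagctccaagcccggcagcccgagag

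The motifs were the TATA box (TATAAA, in 11.5% of 35116 promoters of the same length), the GC box (GGGCGG, 45%), the CCAAT box (CCAAT, 34.6%), the AP-1 site (TGANTCA, 7.71%), the full cyclic AMP element (TGACGTCA, 1.85%) and its core (TGACG, 24.6%), which is part of the full element, the E-box (CACGTG, 7.26%), the SF-1 site (AAGGTCA, 3.92%), a GATA site (AGATAA, 10.3%) and the SMAD box (GTCTAGAC, 0.202%). Of the 2 promoters of genes that fell, that of PTGES held 2 GC boxes, from -89 to -84 and from -78 to -73 relative to the start. That of PTGS1 held 1 GC box from -58 to -53, a GATA match from -178 to -173 and TATAAA on the opposite strand from -208 to -203. Of the 2 promoters of genes that rose, that of PTGER4 held 4 GC boxes and 2 CCAAT boxes, with 72% G and C, and that of PTGDS held none of the 10 motifs, with 68.7% G and C. The median over all promoters was 58.7%. The GC box was the one motif found in more than 1 of the 4, and no motif marked the genes of one direction.

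The comparison of 12 with 6 weeks in the same exposure asked how the pathway changed with time in culture. In the control, 5 of the 8 tested genes changed. PTGDS rose 5.11-fold and PTGER4 2.67-fold, while PTGES fell 1.97-fold, PTGS1 1.79-fold and PTGIS 1.39-fold. The same 5 genes changed in the same direction at 0.01, 0.1 and 1 µM PFOS. PTGES3 also rose at 0.01 and 0.1 µM, and PTGES2 rose and PTGER2 fell at 0.1 µM. In all, edgeR's quasi-likelihood test called 5, 6, 8 and 5 of 8 genes in the control, 0.01, 0.1 and 1 µM cultures, at a Benjamini-Hochberg adjusted p of at most 0.05 over all genes tested. Of all genes, the test called 36.6% in the control (17.3% higher and 19.3% lower), 42.7% at 0.01 µM (21.4% and 21.3%), 40.3% at 0.1 µM (19.7% and 20.6%) and 30.1% at 1 µM (14.2% and 15.9%), so changes with time were common beyond this pathway. The median size of the log2 change was 0.66, 0.80, 0.71 and 0.72 over the 8 genes, against 0.14, 0.15, 0.15 and 0.12 over all genes. Since the 8 genes were chosen with earlier results of these data known, this is a description and no test of the pathway. Time in culture and any batch of harvest, extraction or sequencing cannot be told apart.

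PTGES, the synthase at the end of the inducible PGE2 route, fell by nearly the same amount in all 4 exposures. In the control it was at 7.24, 7.84, 8.20 and 6.35 TPM at 6 weeks and at 3.01, 3.47, 3.79 and 4.00 TPM at 12 weeks. At 0.01 µM it was at 6.97, 7.97, 7.24 and 6.37 and then at 4.31, 3.37, 3.70 and 2.78 TPM. At 0.1 µM it was at 6.26, 5.20, 5.98 and 5.22 and then at 2.55, 2.84, 2.97 and 3.09 TPM. All 16 cultures were lower at 12 weeks, and the 6-week libraries (5.20 to 8.20 TPM) lay above the 12-week libraries (2.55 to 4.32 TPM) with no overlap. The log2 fold change was -0.98 in the control (standard error 0.12, edgeR adjusted p = 1.12e-07), -0.93 at 0.01 µM, -0.97 at 0.1 µM and -0.95 at 1 µM.

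PTGS1, the constitutive cyclooxygenase, also fell in all 16 cultures. In the control it was at 3.06, 2.53, 1.98 and 2.01 TPM at 6 weeks and at 1.2, 1.0, 1.72 and 1.15 TPM at 12 weeks. At 0.1 µM it was at 3.96, 2.82, 3.11 and 2.92 and then at 0.920, 0.850, 0.990 and 0.810 TPM. The times did not overlap in any exposure. Its log2 fold change was -0.84 in the control (standard error 0.19, edgeR adjusted p = 0.000644), -1.62 at 0.01 µM, -1.81 at 0.1 µM and -1.35 at 1 µM (each standard error 0.19). Whether the fall differed between PFOS and control cultures is the interaction test given further on, which it did not pass.

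PTGIS, the prostacyclin synthase, fell less. In the control it went from 196, 186, 173 and 185 TPM to 121, 121, 128 and 134 TPM, and over all exposures from 156 to 227 TPM at 6 weeks to 102 to 156 TPM at 12 weeks. It was lower in all 16 cultures, without overlap within any exposure. The log2 fold change was -0.48 in the control (standard error 0.08, edgeR adjusted p = 4.91e-05) and lay between -0.67 and -0.50 with PFOS. On the genome PTGIS overlaps LOC101927486.

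PTGDS, the lipocalin-type PGD2 synthase, had the largest rise of the 8 genes in every exposure but 0.1 µM, where that of PTGER4 was larger. In the control it went from 5.55, 7.08, 5.49 and 3.99 TPM to 22.7, 28.4, 30.5 and 25.6 TPM, which is 2.35 on the log2 scale (standard error 0.29, adjusted p = 7.07e-07 with edgeR). At 0.01 µM it went from 7.40, 14.1, 15.8 and 11.3 to 21.6, 12.2, 37.2 and 26.2 TPM (log2 1.11, adjusted p = 0.00121), where replicate 2 alone fell and the times overlapped. In the other 3 exposures the times did not overlap. At 0.1 µM it went from 8.37, 9.74, 11.4 and 7.67 to 17.5, 16.7, 18.6 and 12.2 TPM (log2 0.83, adjusted p = 0.0235), and at 1 µM from 10.1, 7.05, 12.1 and 11.3 to 25.2, 37.0, 22.4 and 22.4 TPM (log2 1.37, adjusted p = 0.000301). Of 16 cultures, 15 were higher at 12 weeks. The call was lost at 0.01 µM when only the 2 groups compared were fitted (adjusted p = 0.0576), and at 0.1 µM without replicate 1 or without replicate 4 (highest adjusted p = 0.141).

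PTGER4, the EP4 receptor, rose in all 16 cultures. The control went from 0.500, 0.870, 0.620 and 1.07 TPM to 1.23, 2.39, 1.52 and 2.14 TPM, which is 1.42 on the log2 scale (standard error 0.23, adjusted p = 1e-05 with edgeR). With PFOS the log2 fold changes were 1.04, 1.23 and 1.16. These are low levels, with 14 to 42 counts per library at 6 weeks and 41 to 86 at 12 weeks, and yet the times did not overlap in any exposure. PTGER2, the EP2 receptor, was lower in 12 of 16 cultures in scaled CPM. Its log2 fold change passed only at 0.1 µM (-0.57, standard error 0.16, edgeR adjusted p = 0.00452). It was -0.10 in the control, -0.23 at 0.01 µM and 0.18 at 1 µM, with 95% intervals that all included 0.

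PTGES2 and PTGES3, the constitutively expressed PGE2 synthases, moved little. The log2 fold changes of PTGES3 were 0.07 to 0.15 and passed at 0.01 µM (edgeR adjusted p = 0.00119) and 0.1 µM (0.0346). In scaled CPM it was higher at 12 weeks in 16 of 16 cultures. In TPM some cultures went the other way, as Control replicate 3 did from 301 to 290. The log2 fold changes of PTGES2 were 0.06 to 0.15, with 13 of 16 cultures higher in scaled CPM, and passed only at 0.1 µM (edgeR adjusted p = 0.0444). At 0.1 µM the call of PTGES2 was lost in 5 of 10 alternatives, DESeq2 and both other filters among them (highest adjusted p = 0.307), and that of PTGES3 in 4 of 10 (0.166). HPGD had too few counts for the fit across genes. Its means were 0.0200 to 0.138 TPM over the 8 groups. Exact two-sided permutation tests of log2(CPM + 1), whose smallest possible p is 0.0286, gave adjusted p of 0.893 or more over 10 comparisons. After adjustment over 10 comparisons a single one could not pass even at that smallest p, so these tests could not show a change in one alone.

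**Figure D2:**
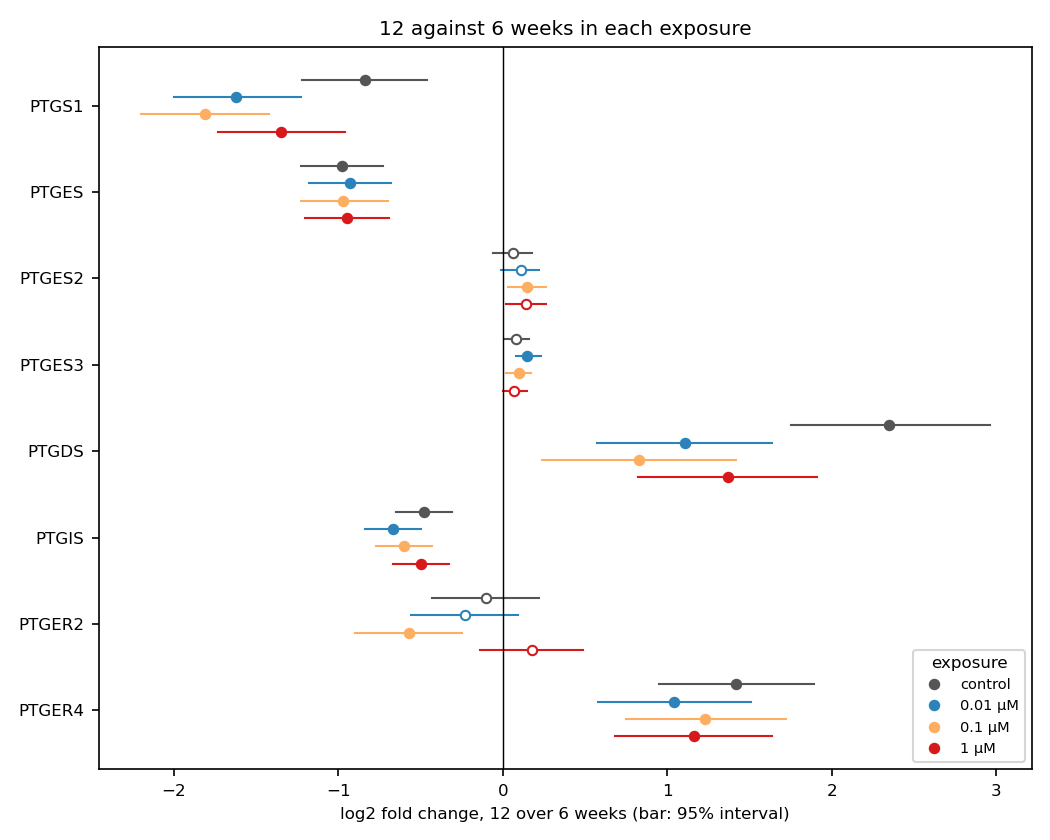
Log2 fold change of 8 prostaglandin genes, 12 over 6 weeks, with 95% intervals from edgeR, in control and PFOS cultures (colours). Filled points passed the adjusted threshold of 0.05. PTGS1, PTGES and PTGIS lie left of 0 and PTGDS and PTGER4 right of 0 in all 4 exposures.

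Marker genes of other cell types moved with time as well. The 4 of 4 endothelial markers with values summed to 158 to 251 counts at 6 weeks and 63 to 145 at 12 weeks. Most came from KDR (45 to 215 counts per library), while PECAM1 had 0 to 25, VWF 4 to 16 and CDH5 3 to 15. The 4 leukocyte markers summed to 494 to 659 and 299 to 508 counts. CD68 had 243 to 497 counts per library, CD14 33 to 190 and PTPRC 0 to 8, with CD3E at 0 in all libraries. In the control the mean of CD14 was 10.6 TPM at 6 weeks and 5.51 TPM at 12 weeks. The 6 markers of stroma or surface epithelium summed to 19767 to 27464 and 15512 to 24214 counts, most of them from KRT7 (11097 to 24343 counts per library), and did not move one way. KRT7 (log2 -0.45 in the control) and PDGFRA (-1.87) fell in all 4 exposures, MSLN rose in all 4 (0.59), LUM (0.36) and UPK3B (0.59) rose in the control, and DCN had values that did not pass. In bulk RNA, fewer cells of a type and less RNA per cell cannot be told apart. The sum over liver markers went from 0 or 1 counts to 81 to 919 in the control and to 72 to 131 at 0.01 µM, while at 0.1 µM (89 to 141 counts at 6 weeks and 95 to 155 at 12 weeks) and 1 µM (88 to 115 and 92 to 174) it overlapped between times. Without Control replicate 3 at 12 weeks, the library with the highest liver sum, 5 of 8 genes were again called in the control. The part of these markers in the changes with time was not tested.

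The comparison of PFOS with control at the same time asked whether exposure changed the pathway. At 6 weeks 1 gene passed in 1 of 3 comparisons. PTGES was 1.29-fold lower at 0.1 µM, at 6.26, 5.20, 5.98 and 5.22 TPM against 7.24, 7.84, 8.20 and 6.35 TPM in the control. The 4 libraries at 0.1 µM lay below the 4 controls, without overlap, and each was below the control of its own vial. The log2 fold change was -0.36 (standard error 0.10, 95% interval -0.58 to -0.15, edgeR adjusted p = 0.0453). This call lies near the threshold. It was lost with DESeq2 (adjusted p = 0.0668), without the filter on low counts (0.0544), with only the 2 groups fitted (0.0621), with all 32 libraries in one fit (0.123) and without any one of the 4 replicates (0.086 to 0.246), and was retained with the vial as replicate block (0.0296). At 0.01 µM the log2 difference was -0.05 (95% interval -0.25 to 0.16) and at 1 µM -0.15 (-0.36 to 0.06).

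At 0.1 µM and 6 weeks the test called 4.24% of all genes, and 1 call among 8 prostaglandin genes is too few to set apart from that share. It called 0% of genes at 0.01 µM and 0.28% at 1 µM, where 0 of 8 prostaglandin genes passed with edgeR or with DESeq2. At an unadjusted p under 0.05, 3, 4 and 1 of the 8 were counted at 0.01, 0.1 and 1 µM, beside 9.6%, 20.8% and 13.7% of all genes. The share called at 0.1 µM fell from 4.24% to 0.997% without replicate 1, 0.171% without replicate 3, 0.599% without replicate 4 and 0.377% with all 32 libraries in one fit, and was 4.44% without replicate 2. Liver markers summed to 89 to 141 counts at 0.1 µM and 88 to 115 at 1 µM, against 0 or 1 in the control, and KRT7 was lower at 0.1 µM (log2 -0.38, standard error 0.08, adjusted p = 0.0255). Their part in the lower PTGES was not tested.

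PTGDS was above control in all 3 exposures at 6 weeks by values that did not pass in the edgeR fit reported here. Against 5.53 ± 1.26 TPM (SD, n = 4) in the control, it was at 12.1 ± 3.65 TPM at 0.01 µM, 9.30 ± 1.65 TPM at 0.1 µM and 10.1 ± 2.2 TPM at 1 µM. The libraries at 0.01 and 0.1 µM did not overlap with the control, and 1 library at 1 µM (7.05 TPM) fell just under the highest control (7.08 TPM). The log2 differences were 1.13 (95% interval 0.66 to 1.61, edgeR adjusted p = 0.242), 0.77 (0.27 to 1.27, 0.0697) and 0.93 (0.44 to 1.42, 0.0957). With the vial as replicate block the adjusted p was 0.0669, 0.0324 and 0.0406, so PTGDS passed at 0.1 and 1 µM. DESeq2 also called PTGDS at 0.1 µM (adjusted p = 0.0312), where it did not call PTGES. Which gene was called at 0.1 µM thus depended on the test. Over all alternatives it lay between 0.0414 and 0.997 at 0.01 µM, between 0.0233 and 0.277 at 0.1 µM and between 0.0259 and 0.549 at 1 µM. The counts behind these levels were 25 to 46 per control library and 46 to 102 per PFOS library.

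PTGS1 and PTGIS had smaller differences at 6 weeks. PTGS1 was at 2.40 ± 0.510 TPM in the control and at 3.15 ± 0.298, 3.20 ± 0.519 and 2.65 ± 0.605 TPM at 0.01, 0.1 and 1 µM (SD, n = 4), with overlapping libraries and log2 differences of 0.41, 0.44 and 0.20 that did not pass (edgeR adjusted p = 0.473, 0.143 and 0.654). PTGIS had log2 differences of 0.17, 0.19 and 0.06 that did not pass either, except at 0.1 µM with only the 2 groups fitted (adjusted p = 0.0395) or without replicate 2 (0.0107). For PTGES2 and PTGES3 the 95% intervals lay within -0.17 and 0.16 on the log2 scale. For the receptors they were wider, within -0.32 and 0.50 for PTGER2 and within -0.60 and 0.76 for PTGER4, so differences of that size could not be detected at these counts.

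At 12 weeks 0 of the 8 genes passed at any of the 3 concentrations with edgeR or DESeq2, where edgeR called 0%, 1.07% and 0.22% of all genes in rising order of concentration. At an unadjusted p under 0.05, 0, 3 and 0 of the 8 were counted, beside 8.48%, 15.4% and 8.75% of all genes. At 0.1 µM PTGDS was at 17.5, 16.7, 18.6 and 12.2 TPM against 22.7, 28.4, 30.5 and 25.6 TPM in the control. All 4 exposed libraries lay below all 4 controls, with a log2 difference of -0.76 (95% interval -1.35 to -0.16) and an edgeR adjusted p of 0.225, which ranged from 0.0209 with only the 2 groups fitted to 0.61 over the alternatives. PTGS1 at 0.1 µM was at 0.892 ± 0.0793 TPM against 1.27 ± 0.313 TPM (SD, n = 4), again without overlap (log2 -0.53, adjusted p = 0.213). PTGES at 0.1 µM had nearly the same log2 difference as at 6 weeks, -0.35 (95% interval -0.68 to -0.03, adjusted p = 0.293). At 0.01 and 1 µM the log2 differences of PTGDS were -0.12 and -0.06, with 95% intervals of -0.69 to 0.45 and -0.63 to 0.50.

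**Figure D3:**
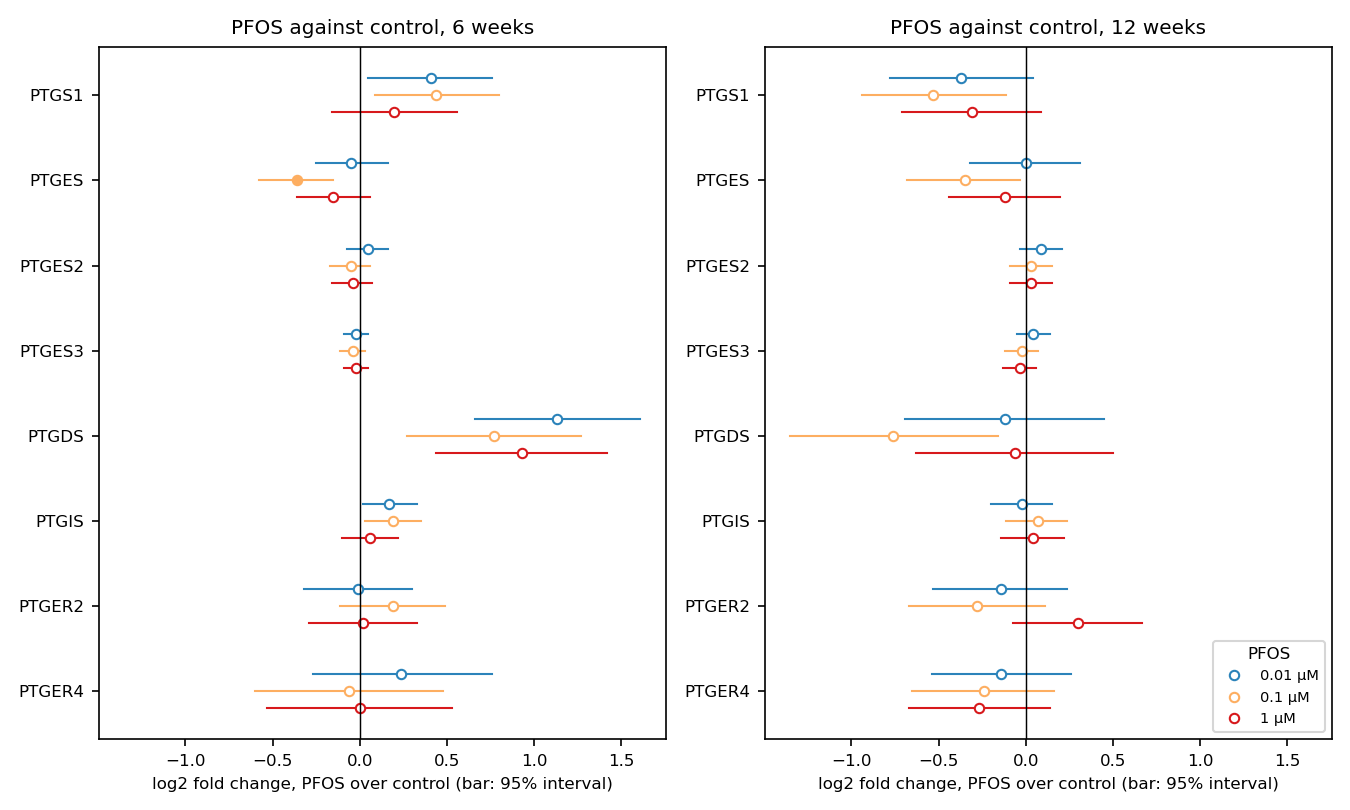
Log2 fold change of 8 prostaglandin genes, PFOS over control of the same time, with 95% intervals from edgeR, at 6 weeks (left) and 12 weeks (right), for 0.01, 0.1 and 1 µM (colours). The filled point, PTGES at 0.1 µM and 6 weeks, is the 1 of 48 tests that passed. The 3 intervals of PTGDS lie above 0 at 6 weeks, while at 12 weeks that of 0.1 µM lies under 0 and the other two include it.

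Over both times, 1 of 48 tests of a prostaglandin gene against control passed and 11 had an unadjusted p under 0.05, a threshold that 8.48% to 20.8% of all genes met in these 6 comparisons. Between neighbouring concentrations 0 of the 8 genes passed with edgeR or DESeq2. At 6 weeks the background was 0.273% of all genes for 0.1 against 0.01 µM and 0.0857% for 1 against 0.1 µM, and at 12 weeks it was 0% and 0%. At an unadjusted p under 0.05 there were 1 and 0 prostaglandin genes at 6 weeks, beside 11.6% and 6.25% of all genes, and 2 and 2 at 12 weeks, beside 14.8% and 7.72%. The largest difference was in PTGDS at 12 weeks, 0.69 on the log2 scale higher at 1 than at 0.1 µM (95% interval 0.09 to 1.29, edgeR adjusted p = 0.629). In the same comparison PTGER2 was at 2.07, 2.06, 1.59 and 1.64 TPM at 1 µM and 1.2, 1.17, 1.36 and 1.11 TPM at 0.1 µM, without overlap (log2 0.57, adjusted p = 0.622).

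The difference of the PFOS effect between 12 and 6 weeks was tested directly, as an interaction over the 32 libraries. With edgeR 0 of the 8 genes passed at any concentration, against 0% of all genes at 0.01 µM, 0.208% at 0.1 µM and 0.123% at 1 µM. At an unadjusted p under 0.05, 2, 3 and 1 of the 8 were counted, beside 7.48%, 14.5% and 12.1% of all genes. At 0.1 µM PTGDS and PTGS1 were above their own vial's control in 4 of 4 vials at 6 weeks and below it in 4 of 4 at 12 weeks. The interaction was -1.53 on the log2 scale for PTGDS (standard error 0.42, edgeR adjusted p = 0.105) and -0.97 for PTGS1 (standard error 0.27, adjusted p = 0.102). DESeq2 called both (adjusted p = 0.0302 and 0.0441). For PTGES the interaction at 0.1 µM was 0.01 (95% interval -0.37 to 0.39).

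Ratios within a library do not depend on its scaling. Ratios of TPM were computed for 7 pairs of these genes, of which part are given here, without a test. PTGDS over PTGES was 0.767, 0.903, 0.670 and 0.628 in the controls at 6 weeks, and 1.06 to 2.18 at 0.01 µM, 1.34 to 1.91 at 0.1 µM and 1.17 to 1.83 at 1 µM. Every PFOS library was above every control at 6 weeks, with more PTGDS than PTGES. How many pairs of other genes separate in this way was not counted. In the reported edgeR fit PTGDS did not pass against control at 6 weeks, and PTGES passed only at 0.1 µM. At 12 weeks the ratio was 6.40 to 8.19 in the control and 3.62 to 10.0 over the PFOS libraries, which overlapped. The ratio of the receptors, PTGER2 over PTGER4, was 1.23 to 3.92 at 6 weeks and 0.505 to 1.32 at 12 weeks over 16 libraries each. PTGER2 thus had the higher level in every 6-week library, while at 12 weeks the ratio lay on both sides of 1. PTGIS over PTGES was 21.1 to 38.9 at 6 weeks and 30.2 to 55.2 at 12 weeks.

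**Figure D4:**
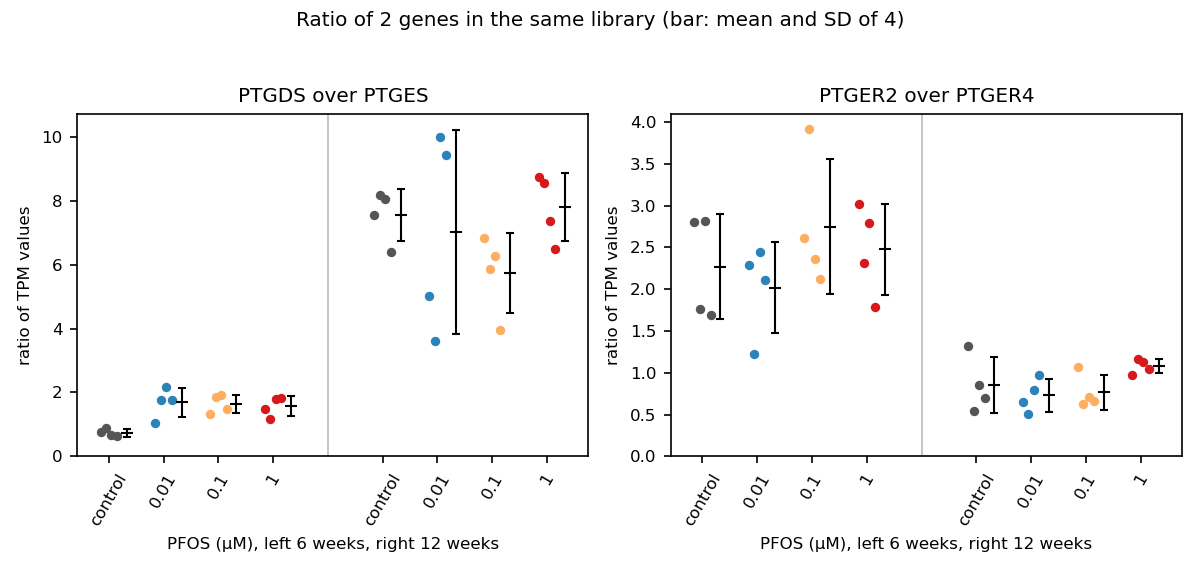
Ratio of TPM values of PTGDS over PTGES (left) and of the receptors PTGER2 over PTGER4 (right) in each of 32 libraries (points), with the mean and SD of each group of 4 (bars), by PFOS concentration at 6 weeks (left of the line) and 12 weeks (right). PTGDS over PTGES is 0.628 to 0.903 in the 6-week controls and 3.62 to 10.0 over all 12-week libraries.

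Other eicosanoid genes were read from a list of 37 genes, of which 22 had enough counts to be tested. It was also chosen with earlier results of these data known, so its counts beside those of all genes are a description. The list is not the whole pathway, since its epoxygenase branch holds CYP2J2, EPHX1 and EPHX2 and leaves out CYP1A1 and CYP1B1. The paper names CYP1A1 as differentially expressed under PFOS and CYP1B1 as decreasing. Its most sensitive pathways were the synthesis of epoxyeicosatrienoic and of hydroxyeicosatetraenoic acids. In the 12 against 6 weeks comparison 2 genes rose and 11 fell in the control, 1 and 12 at 0.01 µM, 1 and 11 at 0.1 µM, and 3 and 11 at 1 µM. Of all genes, 17.3% were higher and 19.3% lower in the control, and 14.2% to 21.4% higher and 15.9% to 21.3% lower with PFOS. The list's median log2 fold change was -0.255, -0.327, -0.311 and -0.256, beside medians over all genes tested of 0.00404, 0.0104, 0.00848 and 0.00509. AKR1B1, a reductase with prostaglandin F2α synthase activity, was the highest gene of the list and fell from 1707 ± 140 to 635 ± 104 TPM in the control (SD, n = 4; log2 -1.35, standard error 0.09, edgeR adjusted p = 6.40e-12). PTGR1, which reduces prostaglandin and leukotriene metabolites, fell from 444 ± 25.1 to 304 ± 11.0 TPM (log2 -0.44). CBR1, a reductase that converts PGE2 to PGF2α, fell by 0.38 on the log2 scale, and PTGFRN, a negative regulator of the F receptor, fell by 0.31. In the epoxygenase branch CYP2J2, which makes epoxides from arachidonic acid, had a log2 change of -1.49, and EPHX1, an epoxide hydrolase, of -0.68. All 6 fell in each of the 4 exposures. Receptors other than EP2 and EP4 were mostly near the limit of detection, with 0 to 7 counts per library for PTGER1, 0 to 6 for PTGER3 and 1 to 11 for PTGDR, while TBXA2R, the thromboxane receptor, had 133 to 240. Against control 0 of the 22 genes passed with edgeR, a result that does not cover CYP1A1 or CYP1B1. At an unadjusted p under 0.05, 3, 2 and 4 were counted at 0.01, 0.1 and 1 µM and 6 weeks and 5, 4 and 0 at 12 weeks, beside 9.6%, 20.8% and 13.7% and then 8.48%, 15.4% and 8.75% of all genes, and DESeq2 called 1, at 0.1 µM and 12 weeks.

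Genes that accompany PTGS2 at ovulation were read from a list of 29, of which 27 had values and 22 or 23 were tested. The list was chosen with earlier results of these data known. Its counts and medians beside those of all genes are therefore a description and no test of the list. Against control the list had 3 calls among 23 genes at 0.1 µM and 6 weeks, beside 4.24% of all genes, all named after their values were seen. EGR1, an immediate early factor, rose (log2 0.68, edgeR adjusted p = 0.0432), as did RUNX1 (0.12, 0.0386), and the nuclear receptor NR4A3 fell (-1.32, 0.00385). Of these, 0 were called without replicate 3, and only NR4A3 with all 32 libraries in one fit. At 0.1 µM and 12 weeks 4 of 22 fell, beside 1.07% of all genes called, namely JUN (-0.59, 0.0064) and FOSB (-0.91, 0.0383), both AP-1 subunits, the cytokine CXCL8 (-1.08, 0.0412) and the matrix protease ADAMTS1 (-0.30, 0.0027), of which FOSB was named after its values were seen. Without Control replicate 3, whose liver sum stands apart, JUN (adjusted p = 0.0243) and ADAMTS1 (0.0182) were called, FOSB and CXCL8 (0.146 each) were not, and the calls over all genes went from 136 to 26. Without replicate 3 of all groups 0 of the list were called, and without replicate 4 only ADAMTS1. The list's median log2 difference there was -0.371, beside -0.00474 over all genes. At 0.01 and 1 µM 0 passed at either time with edgeR, while DESeq2 called 0 and 1 at 6 weeks and 1 and 2 at 12 weeks, and 5 and 5 and then 7 and 9 were counted at an unadjusted p under 0.05, beside 9.6% and 13.7% and then 8.48% and 8.75% of all genes. The interaction at 0.1 µM passed for JUN (-0.78, adjusted p = 0.00244) and ADAMTS1 (-0.28, 0.0194), beside 0.208% of all genes, and for neither without replicate 4 (0.161 and 0.17). With time, 8 of 23 rose and 5 fell in the control, 7 and 8 at 0.01 µM, 1 and 10 at 0.1 µM, and 4 and 9 at 1 µM, where 36.6%, 42.7%, 40.3% and 30.1% of all genes were called. PTX3, a matrix protein of the expanding cumulus, and CD44, the hyaluronan receptor, fell in all 4 exposures (log2 -0.84 and -0.68 in the control). The cytokine IL1B fell by 0.72 on the log2 scale in the control. ADAMTS1 and JUN rose in the control (log2 0.33 and 0.62) and at 0.01 µM (0.14 and 0.27), while neither passed at 0.1 µM.

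The pattern of each gene over the 32 libraries was compared with 12157 genes by Pearson's r of log2(CPM + 1), as a description, since libraries of one vial share cells and all share the change with time. PTGS1 was most like SAA2 (0.964), NDRG4 (0.961) and RASL11A (0.956), and PTGES most like AKR1B1 (0.946), ITGB5 (0.941) and TGFBI (0.939). PTGIS was most like PLEKHB1 (0.954), TNXB (0.951) and CALB2 (0.949), PTGDS most like ITLN1 (0.906), EIF4B (0.905) and FDXR (0.905), and PTGER4 most like PKP3 (0.926), MSLN (0.918) and DCAF12L1 (0.913). After removal of the group means these r values fell to between 0.127 (PTGES with ITGB5) and 0.764 (PTGIS with TNXB). For PTGES3 the closest genes were UBA2, CCT7 and RUVBL2 (0.860 to 0.864), for PTGES2 RBM42, RRP9 and ADRM1 (0.818 to 0.832), and for PTGER2 ERCC5, ABHD14B and WDR5B (0.695 to 0.725). Among the 8 genes themselves the highest r was that of PTGS1 with PTGIS (0.915, and 0.456 within groups). PTGDS and PTGIS had an r of -0.638 over all libraries and 0.569 within groups.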

How the data were processed

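RNA of 32 HGrC1 libraries was measured. The authors prepared stranded poly(A) libraries and deposited, per gene, expected counts from RSEM and TPM values. Per the submitters' processing notes HISAT2 2.0.4, Bowtie2 2.2.5, RSEM 1.2.8 and GRCh38.p14 were used. The prostaglandin genes and the gene lists were chosen with earlier results of these data known. All columns matched a sample label, and 0 were left unmapped.

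Expected counts, of which 7.68% were not whole, were rounded. All genes were tested with edgeR 4.0.16 in R 4.3.3 (robust quasi-likelihood fit, TMM, filterByExpr, two-sided tests, Benjamini-Hochberg adjustment), with 16 libraries per fit for PFOS against control and between concentrations, and 32 for times and interactions. Genes were called at an adjusted p of at most 0.05. TPM values were used as deposited, for levels and ratios. Counts of cultures that were higher or lower, and coefficients of variation, used CPM scaled by TMM. HPGD was tested by exact permutation. Alternatives were DESeq2 1.42.0, other size factors, filters and fits, a replicate block and leaving out each replicate. On simulated counts of 12790 genes for 1 µM against control at 6 weeks, 195 of 200 genes changed 2-fold were recovered, with 12 false calls. The changed genes were drawn from those above 1 CPM. Smaller changes, such as that of PTGES at 0.1 µM and 6 weeks, were not simulated.

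Named were all prostaglandin genes, up to 6 called genes per list by lowest adjusted p, and the 3 most like genes of each with a mean of at least 1 CPM. Replicates are cultures from 4 vials, and the labels state that each vial's flask was divided into the 4 groups, so numbers pair the samples. Same-numbered libraries had a mean correlation of deviations of 0.055 to 0.124 at 6 weeks. At 12 weeks it was -0.161 (control with 1 µM) to 0.154. These values were near 0 at both times, so the pairing rests on the labels and is least certain at 12 weeks. Between 6 and 12 weeks it was not checked. Counts lay within a narrow range per library, and intervals cover the spread between cultures.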

Additional observations from a re-analysis of the deposited data

Results flagged for a closer look

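In 72 groups of 4 libraries (9 genes, 8 groups), 3 held a library whose gap to the nearest other exceeded Dixon's 95% limit as a share of the group's range, where chance gives about 1 in 20 groups. These were PTGES2 in replicate 4 at 0.01 µM and 6 weeks (69.9 TPM, the others 64.1 to 64.8), PTGER4 in replicate 4 at 1 µM and 6 weeks (0.87 TPM, the others 0.570 to 0.620), and HPGD in Control replicate 3 at 6 weeks (0.12 TPM from 3 counts, the others at 0).

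The effect of 0.1 µM PFOS moved in opposite directions in all 4 vials at the 2 times for PTGDS and PTGS1. The difference between times, tested as an interaction, was -1.53 on the log2 scale for PTGDS (edgeR adjusted p = 0.105, 0.00471 to 0.722 over the alternatives) and -0.97 for PTGS1 (0.102, 0.0441 to 0.629). Neither passed in the edgeR fit of all 32 libraries.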

How the results depend on the processing

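Under 12 alternative settings 1496 values were recomputed. Of these 1463 kept their side of the threshold and their direction where called, 20 lost a call, 13 gained one and 0 called values changed sign. At 0.1 µM against control and 6 weeks, 1 prostaglandin gene (PTGES) was called in the reported fit and 1 (PTGDS) with DESeq2. The count was 0 with no filter on low counts or with all 32 libraries in one fit. It was 2 (PTGDS and PTGIS) with only the groups compared, and 0 to 1 without one replicate. With the replicate block 2 were called there (PTGDS and PTGES), and at 1 µM and 6 weeks 1 (PTGDS) in place of 0. The block changed no other count of these genes. Without one replicate the count was 0 to 1 at 0.01 and at 1 µM at 6 weeks. With only the groups compared 1 was called at 0.1 µM and 12 weeks (PTGDS) in place of 0. For the interaction at 0.1 µM 2 were called with DESeq2 and 1 with only the groups compared, in place of 0. For 12 against 6 weeks at 0.1 µM, 8 became 5 to 8 without one replicate. Those that lost the call without replicate 1 or 4 included PTGDS, PTGES2 and PTGES3. PTGS1, PTGES, PTGIS and PTGER4 were called for 12 against 6 weeks in all 4 exposures under every alternative run. Receptor and HPGD counts limit what could be detected, and the cause of the changes between settings was not tested.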
